A study of Mus musculus with 12 samples.

Results

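The genes studied here encode scaffold proteins of the postsynaptic density, the protein layer under the receptors of excitatory synapses. All probe sets that the platform annotation assigns to Dlg1, Dlg2, Dlg3, Dlg4, Homer1, Homer2, Homer3, Shank1, Shank2 or Shank3 were taken, which gave 22 probe sets of 9 of the 10 genes, among 45101 probe sets in all. Shank2 had 0 probe sets under its symbol. A probe set is a group of short probes read as one signal, and several probe sets of one gene can read different stretches or transcript forms.

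The Dlg genes encode membrane-associated guanylate kinases that bind the tails of NMDA receptors and of the proteins that anchor AMPA receptors, and the Dlg4 product is Psd-95. Shank proteins form a deeper layer of the postsynaptic density and are joined to the Dlg layer through the Dlgap proteins. Homer proteins bind Shank, group I metabotropic glutamate receptors and the calcium channels of internal stores, and the long forms pair through a coiled coil. A short form of Homer1, made after neuronal activity, lacks the coiled coil and competes with the long forms.

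Medial prefrontal cortex (PFC) of male mice, obtained at 12 weeks of age and then habituated to the facility, was profiled on Affymetrix whole-genome arrays. Groups of 3 arrays each came from Fyn-null mice given ethanol, control mice given ethanol, Fyn-null mice given saline and control mice given saline. All mice had 3 days of saline injections and on day 4 received saline or ethanol at 3 g/kg (20% v/v) into the peritoneum, and PFC was taken after 4 hours. Fyn-null mice were B6;129S7-Fyntm1Sor/J and control mice B6129SF2/J, which are separate stocks, so that the absence of Fyn and a difference of stock cannot be told apart. Each array held RNA pooled from 3 mice, and the number of mice given for the study differs between the sample labels and the methods. The p-values measure the spread between these pools.

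Values are log2 RMA signals, in which a difference of 1 is a doubling, and a level is not compared between probe sets. Fyn itself, by its probe set 1417558_at, was 9.01, 8.75 and 8.77 in Fyn-null ethanol pools and 9.70, 9.45 and 9.33 in control ethanol pools. It was 8.89, 8.64 and 9.45 in the pools labelled Fyn-null saline and 9.31, 8.74 and 9.65 in those labelled control saline. Fyn-null saline replicate 4 and control saline replicate 2 thus stood with the other genotype, and any direction drawn between the saline pools carries this doubt. No source used here says whether the probe set reads the part of Fyn that is disrupted. Excitatory cortical neuron markers were present (mean level of 4 of 5 markers between 9.59 and 10.3 in all arrays), and a lower signal of a gene cannot be told apart from fewer cells that express it.

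Of the 22 probe sets, 17 of 7 genes were among the 24770 left after the 45% with the lowest mean were removed. Those removed were Dlg1 1445798_at, Dlg2 1421200_at, Homer1 1425671_at and the sole probe sets of Homer3 and Shank1. The other 17 were tested with limma, with Benjamini-Hochberg adjustment over all 24770, and those with an adjusted p under 0.05 count as called.

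Promoter windows (RefSeq, GRCm38.p6, 250 bases before to 50 after a start) matched 8 of the 10 genes, without Shank1 and Shank2. Homer1 has a pair of annotated starts, shown because its short form is made after activity and its probe sets lay on both sides of 0 after ethanol. No source used here ties either start to the short form, to the long forms or to a probe set. Capitals mark TGACG or its reverse complement CGTCA, the core of the site bound by the activity-regulated factor CREB, both of which lie in the full site TGACGTCA. The first line is chr13:93303507-93303806 and the other chr13:93307784-93308083, both on the plus strand.
Homer1 first start: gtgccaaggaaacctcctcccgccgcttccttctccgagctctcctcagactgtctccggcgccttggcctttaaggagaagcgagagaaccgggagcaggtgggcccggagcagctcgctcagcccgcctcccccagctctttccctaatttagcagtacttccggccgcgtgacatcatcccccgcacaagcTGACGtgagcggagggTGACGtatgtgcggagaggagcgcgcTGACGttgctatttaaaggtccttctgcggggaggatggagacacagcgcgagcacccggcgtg
Homer1 other start: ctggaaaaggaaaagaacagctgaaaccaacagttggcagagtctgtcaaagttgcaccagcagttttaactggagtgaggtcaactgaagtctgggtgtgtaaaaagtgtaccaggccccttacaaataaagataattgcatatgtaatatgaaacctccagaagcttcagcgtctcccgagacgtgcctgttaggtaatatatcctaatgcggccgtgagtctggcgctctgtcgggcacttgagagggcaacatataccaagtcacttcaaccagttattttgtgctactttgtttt

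The first Homer1 window held TGACG 3 times, at positions -56, -40 and -14 from the start, and the other held it 0 times on either strand. Of all 32851 windows, 20.8% held the letters at least once on either strand and 1.03% held them 3 times or more. Of 18 windows of the scaffold genes, 3 held them, and those of Dlg3 and Dlg4 had a single match each, at -78 and -76. The full site TGACGTCA was in 0 of the 18 windows, against 1.79% of all windows. A match describes the letters and is no measure of binding.

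Ethanol left the scaffold genes without a single call. By limma with Benjamini-Hochberg adjustment, 0 of 17 probe sets passed in ethanol over saline across both genotypes (6 pools against 6), where 6.81% of all probe sets tested were called. Unadjusted p-values under 0.05 were reached by 6 of the 17, against 24.3% of all probe sets. The highest-mean probe sets of the 7 genes were each below 0, as were those of 7699 of all 12323 genes. Their median difference was -0.14, against -0.04 over all genes. With the probe sets of a gene averaged, Dlg4 was at 0.33 and Dlg1 at 0.03, and the others were below 0. The lean of the highest-mean probe sets was lost with the measure of RNA quality given below as a covariate, where 4 of the 7 were above 0 and the median was 0.00, against 0.01 over all genes. Across all 17 probe sets 8 were above 0 and 9 below, with a median of -0.01 against -0.02 over all probe sets.

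Dlg4, the gene of Psd-95, had the largest difference of the group in 1 of its 3 probe sets only. Probe set 1419581_at was 7.66, 8.29 and 8.17 in Fyn-null ethanol pools and 7.09, 7.72 and 7.35 in Fyn-null saline pools. Control ethanol pools had 8.47, 8.96 and 8.14 and control saline pools 8.12, 8.11 and 6.35. Ethanol pools were mostly the higher ones, the control groups did not overlap, and control saline replicate 3 lay far below every other pool. Over both genotypes the difference was 0.83 (95% interval 0.23 to 1.42, 1.77-fold higher, standard error 0.27, adjusted p = 0.0851, limma), which did not pass. Within control mice it was 1.00 (adjusted p = 0.206) and within Fyn-null mice 0.65 (adjusted p = 0.576). Without control saline replicate 3 these were 0.55 over both genotypes (adjusted p = 0.0829) and 0.41 in control mice.

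The Dlg4 probe set with the highest mean, 1419580_at, gave no such difference. It was 8.92, 9.22 and 9.17 in Fyn-null ethanol pools and 9.03, 9.64 and 8.81 in Fyn-null saline pools. Control ethanol pools had 9.15, 9.54 and 8.81, against 9.11, 9.35 and 8.90 in control saline pools. The 4 groups covered one another, and ethanol minus saline was -0.01 over both genotypes (95% interval -0.32 to 0.31). The third, 1460261_at, was 5.17, 5.59 and 5.28 in Fyn-null ethanol, 5.33, 5.47 and 5.28 in control ethanol, 4.78, 5.30 and 5.32 in Fyn-null saline and 5.40, 5.41 and 4.85 in control saline pools. Its difference was 0.17 (95% interval -0.09 to 0.43), and its groups overlapped. The ethanol differences of the 3 Dlg4 probe sets thus ranged from -0.01 to 0.83.

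**Figure D1:**
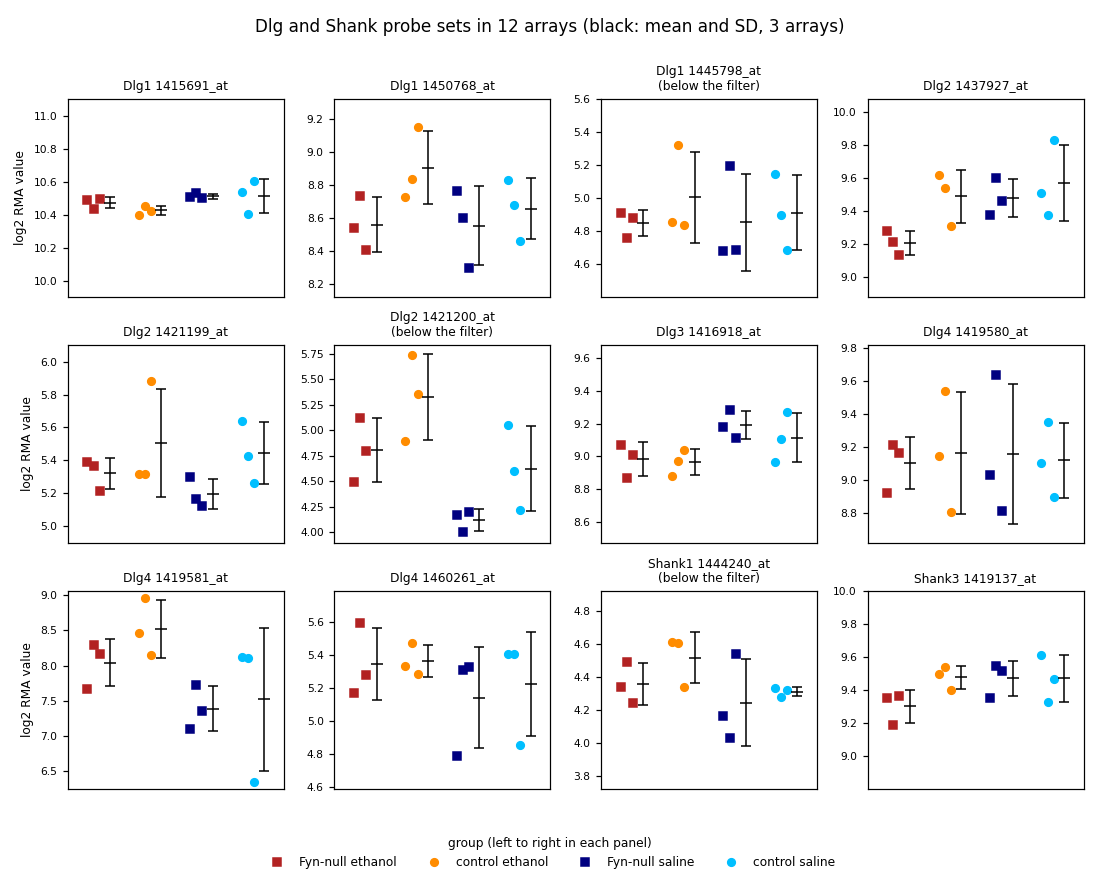
Log2 RMA value (vertical axis) of each Dlg and Shank probe set in the 12 pools, with groups from left to right as in the legend, and the mean and SD of 3 pools in black. Dlg4 1419581_at lies between 7.66 and 8.96 in ethanol pools and between 6.35 and 8.12 in saline pools, while the groups of Dlg4 1419580_at overlap. Vertical scales differ between panels.

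Dlg3, which encodes the guanylate kinase Sap102, was read by 1 probe set and was slightly lower after ethanol. It was 9.07, 8.87 and 9.01 in Fyn-null ethanol pools and 9.18, 9.28 and 9.11 in Fyn-null saline pools, which did not overlap. The control ethanol pools, at 8.88, 8.97 and 9.04, did overlap with the control saline pools, at 8.97, 9.10 and 9.27. The difference over both genotypes was -0.18 (95% interval -0.32 to -0.04, standard error 0.065, adjusted p = 0.111, limma) and did not pass.

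Dlg2, the gene of Psd-93, was 9.28, 9.21 and 9.13 by 1437927_at in Fyn-null ethanol pools and 9.38, 9.60 and 9.46 in Fyn-null saline pools, which did not overlap. In control mice it was 9.62, 9.54 and 9.31 in ethanol pools and 9.51, 9.38 and 9.83 in saline pools, which overlapped. The ethanol differences were -0.27 in Fyn-null mice (adjusted p = 0.41, limma), -0.08 in control mice and -0.18 over both (95% interval -0.36 to 0.01). Dlg2 1421199_at was 0.10 over both genotypes (95% interval -0.12 to 0.31).

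Dlg2 1421200_at was below the filter, with values from 4.00 to 5.74, and was chosen for description after its values were seen. It was 4.49, 5.12 and 4.80 in Fyn-null ethanol pools and 4.17, 4.00 and 4.20 in Fyn-null saline pools. Control ethanol pools had 4.90, 5.74 and 5.35, against 5.05, 4.60 and 4.22 in control saline pools. The ethanol pools were higher in mean in both genotypes. With all probe sets tested and no filter, its difference was 0.69 and passed (adjusted p = 0.0277, limma), the reverse of the sign of the highest-mean probe set of the gene. With the filter 6.81% of all probe sets were called in this comparison. The share with no filter is not given here, so this call is not set against it. The measure of RNA quality given below, which differed between ethanol and saline pools, was set only against probe sets past the filter. Its part in this call was therefore not tested.

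Dlg1, the gene of Sap97, varied little by 1415691_at. It was 10.49, 10.43 and 10.49 in Fyn-null ethanol pools and 10.51, 10.53 and 10.50 in Fyn-null saline pools. The control ethanol pools were at 10.40, 10.45 and 10.42 and the control saline pools at 10.54, 10.40 and 10.60. Fyn-null groups did not overlap, by a margin under a hundredth, and the difference over both genotypes was -0.07 (95% interval -0.17 to 0.04). Dlg1 1450768_at was 0.13 (95% interval -0.10 to 0.36), and Dlg1 1445798_at lay below the filter with values from 4.68 to 5.32.

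Homer1 was read by 6 probe sets, of which 5 passed the filter, and their ethanol differences lay on both sides of 0. No source used here says which of them read the short form and which the long forms. The highest-mean probe set, 1437363_at, was 10.82, 10.88 and 10.65 in Fyn-null ethanol pools and 10.85, 11.05 and 10.63 in Fyn-null saline pools. The control ethanol pools were at 10.55, 10.60 and 10.82 and the control saline pools at 10.93, 10.81 and 10.87. Groups overlapped in both genotypes, narrowly in control mice, and the difference over both was -0.14 (95% interval -0.31 to 0.04, adjusted p = 0.325, limma).

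Homer1 1436387_at leaned lower after ethanol. Its values were 10.35, 10.30 and 10.29 in Fyn-null ethanol pools and 10.39, 10.60 and 10.80 in Fyn-null saline pools, which did not overlap. Control ethanol pools had 9.91, 10.51 and 10.54 and overlapped with control saline pools, at 10.77, 10.25 and 10.92. Over both genotypes the difference was -0.30 (95% interval -0.58 to -0.03, adjusted p = 0.168, limma).

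Homer1 1421768_a_at leaned the other way. It was 6.70, 6.70 and 6.58 in Fyn-null ethanol pools and 6.61, 6.53 and 6.25 in Fyn-null saline pools. In control mice it was 6.93, 6.78 and 6.95 in ethanol pools and 6.93, 6.40 and 6.38 in saline pools. Control saline replicate 1 was the sole saline pool at the level of the control ethanol pools. The difference over both genotypes was 0.26 (95% interval 0.05 to 0.47, adjusted p = 0.124, limma), and it passed without control saline replicate 1 (0.33, adjusted p = 0.043). Without the 2 saline pools whose Fyn value stood with the other genotype it was 0.16 (adjusted p = 0.348).

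Homer1 1425710_a_at was 6.95, 6.87 and 6.71 in Fyn-null ethanol pools and 7.02, 6.75 and 7.04 in Fyn-null saline pools. In control mice it was 7.38, 7.09 and 7.30 in ethanol pools and 7.17, 6.84 and 6.89 in saline pools. Control ethanol pools were the highest group, and control saline replicate 1 lay within their range. Ethanol minus saline was 0.29 in control mice (adjusted p = 0.218, limma) and -0.09 in Fyn-null mice. The difference between these responses, Fyn-null minus control, was -0.38 (95% interval -0.75 to -0.02, unadjusted p = 0.0417, adjusted p = 0.992, limma interaction term), and 4.13% of all probe sets reached an unadjusted p under 0.05 there. Without the 2 doubted saline pools it was -0.27 (unadjusted p = 0.179). Of the 17 scaffold probe sets it was the sole one to do so, and 0 passed, with 0% of all probe sets called.

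Homer1 1439662_at was flat across treatments, with 9.59, 9.40 and 9.55 in Fyn-null ethanol, 9.76, 9.65 and 9.62 in control ethanol, 9.53, 9.57 and 9.45 in Fyn-null saline and 9.70, 9.59 and 9.65 in control saline pools. Its ethanol difference was 0.01 (95% interval -0.10 to 0.13). Homer1 1425671_at, below the filter, was 3.72, 4.19 and 3.90 in Fyn-null ethanol, 3.82, 4.32 and 4.93 in control ethanol, 3.51, 3.52 and 3.51 in Fyn-null saline and 4.66, 3.69 and 2.91 in control saline pools. The last group alone spanned nearly the whole range of that probe set.

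**Figure D2:**
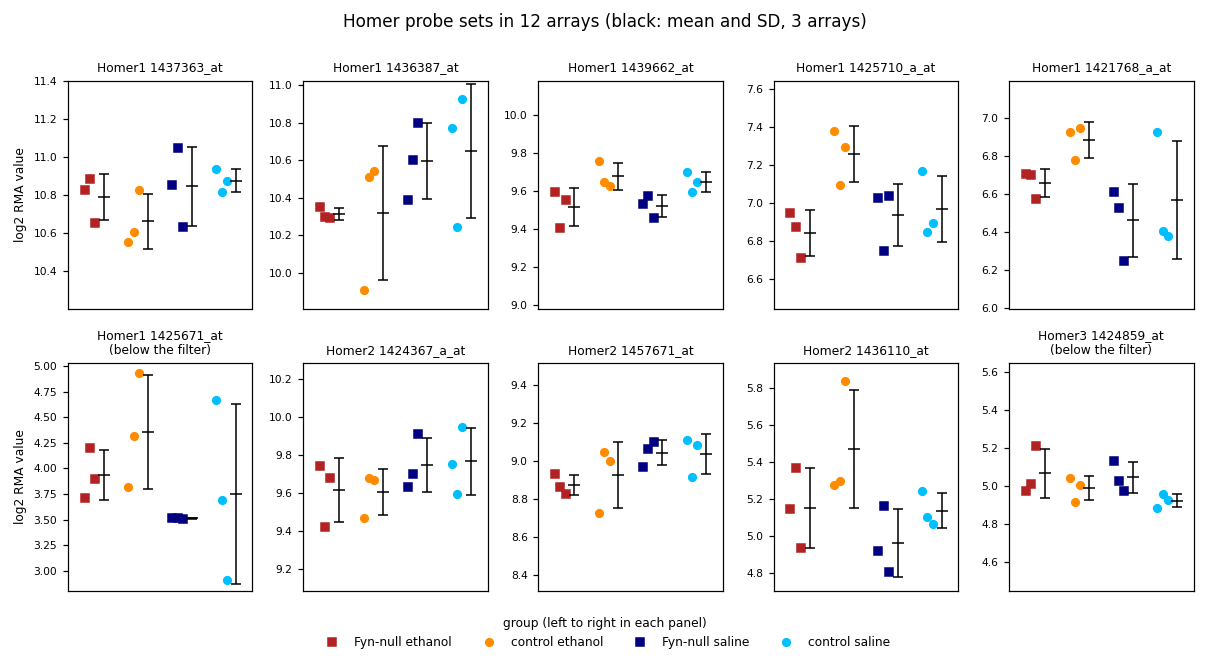
Log2 RMA value (vertical axis) of each Homer probe set in the 12 pools, with groups from left to right as in the legend, and the mean and SD of 3 pools in black. Homer1 1436387_at and Homer1 1421768_a_at lean in opposite directions between ethanol and saline pools (-0.30 and 0.26), and Homer1 1439662_at differs between Fyn-null and control pools by -0.14. Vertical scales differ between panels.

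Homer2, a second long-form Homer gene, had 3 probe sets past the filter. By the one with the highest mean, 1424367_a_at, it was 9.74, 9.42 and 9.68 in Fyn-null ethanol, 9.47, 9.68 and 9.67 in control ethanol, 9.63, 9.70 and 9.91 in Fyn-null saline and 9.75, 9.60 and 9.95 in control saline pools. These groups overlapped, with a difference of -0.15 (95% interval -0.32 to 0.03). Homer2 1457671_at was 8.93, 8.86 and 8.83 in Fyn-null ethanol pools and 8.97, 9.06 and 9.10 in Fyn-null saline pools, which did not overlap. It was 8.73, 9.05 and 9.00 in control ethanol pools and 9.11, 8.91 and 9.08 in control saline pools, which did, and its difference over both genotypes was -0.14 (adjusted p = 0.204, limma). Homer2 1436110_at went the other way, at 0.26 (95% interval 0.03 to 0.49, adjusted p = 0.158, limma). It was 5.14, 5.37 and 4.94 in Fyn-null ethanol pools, 5.27, 5.30 and 5.83 in control ethanol pools, 4.92, 5.16 and 4.80 in Fyn-null saline pools and 5.24, 5.10 and 5.06 in control saline pools. Control groups of this probe set did not overlap, and Fyn-null groups did. Without control ethanol replicate 4 its difference was 0.17.

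Homer3 and Shank1 were at low signal in PFC by their sole probe sets and were not tested. Homer3 was 4.98, 5.01 and 5.21 in Fyn-null ethanol, 5.04, 4.92 and 5.01 in control ethanol, 5.13, 5.03 and 4.98 in Fyn-null saline and 4.88, 4.96 and 4.92 in control saline pools. Shank1 was 4.34, 4.49 and 4.24 in Fyn-null ethanol, 4.61, 4.60 and 4.33 in control ethanol, 4.16, 4.03 and 4.54 in Fyn-null saline and 4.33, 4.28 and 4.32 in control saline pools. Ethanol and saline pools overlapped in both genotypes for Homer3 and in Fyn-null mice for Shank1, whose control groups parted by under a hundredth.

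Shank3, the one Shank gene past the filter, was 9.35, 9.19 and 9.36 in Fyn-null ethanol pools and 9.35, 9.54 and 9.52 in Fyn-null saline pools. In control mice it was 9.49, 9.54 and 9.40 in ethanol pools and 9.62, 9.33 and 9.47 in saline pools. Fyn-null ethanol pools were the lowest group, and the ethanol difference over both genotypes was -0.08 (95% interval -0.23 to 0.07, adjusted p = 0.506, limma). In Fyn-null mice it was -0.17 (95% interval -0.37 to 0.04) and in control mice 0.01 (95% interval -0.20 to 0.21). The difference between the 2 responses, -0.18 (95% interval -0.47 to 0.11), did not pass.

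Within each genotype the count of calls was also 0 of 17, where ethanol called 1.43% of all probe sets in control mice and 0.4% in Fyn-null mice. Unadjusted p-values under 0.05 were reached by 3 of the 17 in control mice (18.9% of all) and 2 in Fyn-null mice (11.7% of all). Groups did not overlap for 2 of the 17 in control mice (23% of all) and for 5 in Fyn-null mice (18.1% of all). Over both genotypes the 6 ethanol and 6 saline pools did not overlap for 0 of the 17 (3.9% of all).

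**Figure D3:**
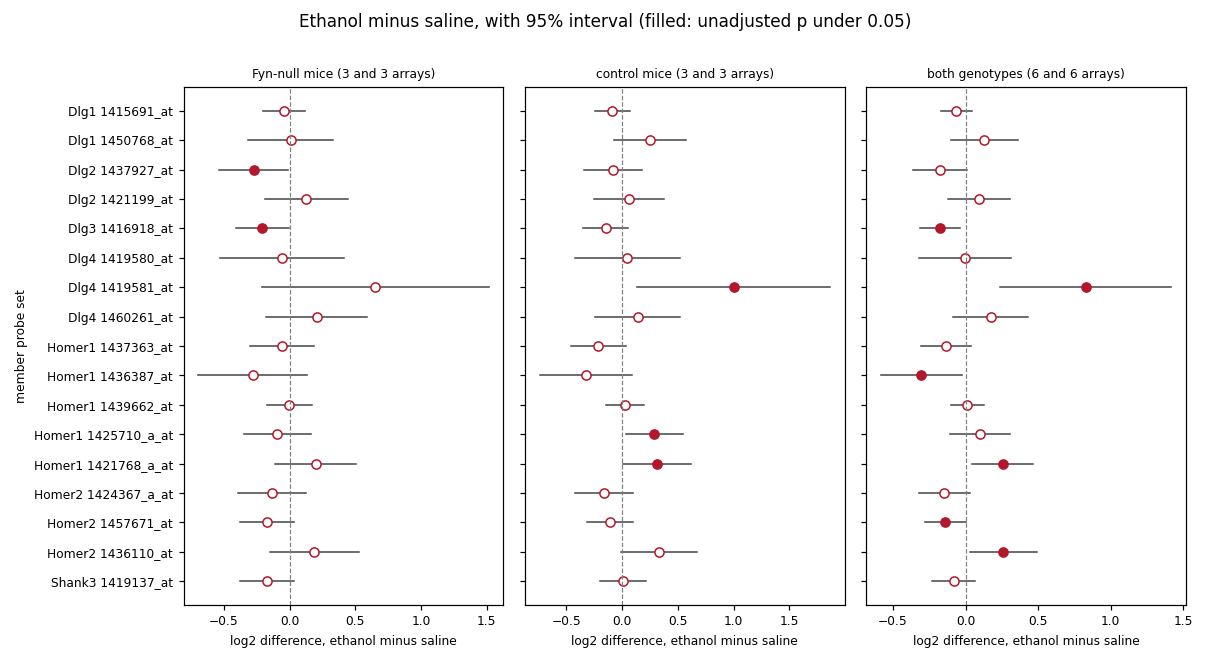
Log2 difference of ethanol minus saline (horizontal axis) with its 95% interval for the 17 scaffold probe sets, in Fyn-null mice, control mice and both. Filled points have an unadjusted p under 0.05, and 0 of 17 passed after adjustment in any panel. Dlg4 1419581_at has the largest difference and the widest interval, 0.83 (0.23 to 1.42) over both genotypes.

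To compare probe sets of one gene directly, each was expressed relative to the mean of the others of its gene in the same array, for 14320 probe sets of 5425 genes, 15 of them scaffold probe sets of 5 genes. Over both genotypes, ethanol minus saline of this relative value was 0.74 for Dlg4 1419581_at (standard error 0.19, adjusted p = 0.0644, limma) and -0.50 for Dlg4 1419580_at (adjusted p = 0.0913). For Homer1 1421768_a_at it was 0.34 (adjusted p = 0.0708), and for Homer1 1436387_at -0.36 (adjusted p = 0.167). For Homer2 1436110_at it was 0.40 (adjusted p = 0.0969), and for Homer2 1457671_at -0.20 (adjusted p = 0.109). Thus 0 of 15 passed, where 1.4% of all did, and 6 of 15 had an unadjusted p under 0.05, against 21.5% of all. Relative values of 1 gene are built from each other and are not independent. Without control saline replicate 1, Dlg4 1419581_at (0.84, adjusted p = 0.0459) and Homer1 1421768_a_at (0.39, adjusted p = 0.0443) passed, and without control saline replicate 3 Dlg4 1419581_at did (0.53, adjusted p = 0.0303). With no filter neither passed, and the relative value of Dlg2 1421200_at did (0.74, adjusted p = 0.046). The share of all relative values called in these settings was not counted, so these calls are not set against it.

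A sign of RNA quality moved with treatment. The mean difference between the 3' and 5' control probe sets of Actb and Gapdh, which widens when transcripts are shortened, was 0.463 ± 0.087 in ethanol pools and 0.77 ± 0.157 in saline pools (SD, n = 6 each, difference -0.31, two-sided exact permutation test p = 0.00433). Over the 12 pools Dlg3 followed it with a Pearson r of 0.92 (permutation p = 1e-05, the smallest that these permutations can give, adjusted over 17 probe sets 0.00017) and a Spearman coefficient of 0.94 (permutation p = 5e-05, adjusted 0.00085). Within ethanol pools the r of Dlg3 was 0.83, within saline pools 0.87, and without the 2 pools farthest from the median 0.88.

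Dlg4 1419581_at ran the opposite way, with r = -0.88 (permutation p = 8e-05, adjusted 0.00068) and a Spearman coefficient of -0.89 (permutation p = 0.00034, adjusted 0.00289). Its r was -0.67 within ethanol pools, -0.85 within saline pools and -0.84 without the 2 farthest. Dlg4 1419580_at had an r of -0.17. In all, 5 of 17 probe sets had an adjusted Pearson p under 0.05, the others being Dlg1 1415691_at (r = 0.71), Homer1 1421768_a_at (r = -0.72) and Homer2 1424367_a_at (r = 0.72), each at an adjusted permutation p of 0.0308. The Spearman coefficient of each of these had an adjusted permutation p of 0.0637. The permutation tests were run on the 17 alone, so the count of 5 has no matching share of all probe sets. By limma on the 3' to 5' difference alone, 29.5% of all probe sets had an unadjusted p under 0.05. The pool with the widest 3' to 5' difference, control saline replicate 3 at 0.991, was the one with the lowest Dlg4 1419581_at.

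Fitted on the 3' to 5' difference alone, limma called Dlg3 (adjusted p = 0.00822), Dlg4 1419581_at (adjusted p = 0.00265) and Homer1 1421768_a_at (adjusted p = 0.0354), 3 of 17, where 12.6% of all probe sets were called. With the difference as a covariate, chosen after the data were seen, ethanol minus saline was -0.24 for Dlg4 1419581_at, 0.03 for Dlg3 and 0.05 for Homer1 1421768_a_at, and 0 of 17 passed (0.109% of all). For Homer1 1436387_at, whose Pearson r was 0.64 (adjusted permutation p = 0.0594), ethanol minus saline was then -0.05. The difference changed sign for 8 of the 17. As treatment and this difference moved together, their parts in the results were not tested.

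**Figure D4:**
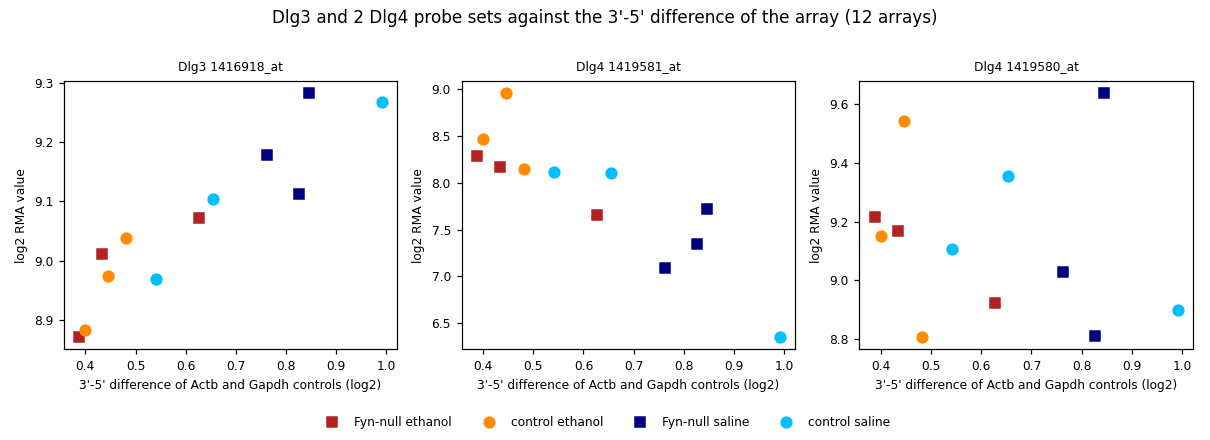
Log2 RMA value (vertical axis) of Dlg3 and of 2 Dlg4 probe sets against the 3' to 5' difference of the Actb and Gapdh control probe sets (horizontal axis, log2) in the 12 pools. Dlg3 climbs with the difference (r = 0.92), Dlg4 1419581_at declines (r = -0.88) and Dlg4 1419580_at scatters (r = -0.17).

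Between genotypes the scaffold genes also gave no call. By limma 0 of 17 passed under saline, under ethanol or over both treatments, and in each of these 0% of all probe sets did. Unadjusted p-values under 0.05 were reached by 0 of 17 under saline (1.89% of all), 3 under ethanol (13.6% of all) and 5 over both treatments (11.1% of all). Over both treatments 14 of the 17 were below 0 in Fyn-null mice, with a median of -0.09, against 0.01 over all probe sets, of which 55.8% were above 0. By the highest-mean probe set of a gene, 4 of 7 were below 0 and the median was -0.01, against 0.03 over all genes. With the probe sets of a gene averaged, all but Dlg3 (0.05) were below 0, with Dlg2 the farthest at -0.20 (adjusted p = 0.237, limma). The same averages over all genes are not given here.

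Homer1 1439662_at, flat across treatments, was lower in each of the 6 Fyn-null pools than in any of the 6 control pools, although the nearest pools of the genotypes, Fyn-null ethanol replicate 1 and control saline replicate 2, were both at 9.59 after rounding and parted by under a hundredth. Its difference was -0.14 (95% interval -0.26 to -0.03, unadjusted p = 0.018, adjusted p = 0.371, limma). It was the sole scaffold probe set whose 6 against 6 pools did not overlap, 1 of 17, against 0.307% of all probe sets. The pools whose Fyn value stood with the other genotype, control saline replicate 2 at 9.59 and Fyn-null saline replicate 4 at 9.45, lay on the side of their labels here, and without both the difference was -0.15 (adjusted p = 0.253).

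Homer1 1425710_a_at differed most under ethanol, where its groups did not overlap, at -0.41 (95% interval -0.67 to -0.16, 1.33-fold lower in Fyn-null pools, unadjusted p = 0.00435, adjusted p = 0.177, limma). Between the pools labelled as the saline groups it was -0.03 (95% interval -0.29 to 0.23), and -0.14 without the 2 doubted ones. Homer1 1421768_a_at also had separate groups under ethanol, at -0.23 (95% interval -0.53 to 0.08), whereas Homer1 1437363_at was 0.13 there (95% interval -0.12 to 0.37). Probe sets of Homer1 thus lay on both sides of 0 under ethanol. Between the pools labelled as the saline groups the tested ones lay between -0.13 and -0.03, and none passed. Without the 2 doubted pools they lay between -0.35 and 0.05 under saline.

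Dlg2 was lower in Fyn-null mice by both tested probe sets, without passing. Dlg2 1437927_at was -0.28 under ethanol (adjusted p = 0.326, limma), where its groups did not overlap, and -0.19 over both treatments (adjusted p = 0.449). Dlg2 1421199_at was 5.39, 5.36 and 5.22 in Fyn-null ethanol, 5.32, 5.32 and 5.88 in control ethanol, 5.30, 5.17 and 5.12 in Fyn-null saline and 5.64, 5.43 and 5.26 in control saline pools, with a difference of -0.21 over both treatments (adjusted p = 0.451). Its highest value came from control ethanol replicate 4. Dlg1 1450768_at was 8.54, 8.74 and 8.41 in Fyn-null ethanol pools and 8.73, 8.84 and 9.15 in control ethanol pools, which overlapped, at -0.35 (adjusted p = 0.329, limma). Without control ethanol replicate 4 these were -0.13 for Dlg2 1421199_at and -0.22 for Dlg1 1450768_at.

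Homer2 1436110_at was -0.25 over both treatments (95% interval -0.48 to -0.02, adjusted p = 0.431, limma) and -0.16 without control ethanol replicate 4, and the other probe sets of Homer2 were -0.01 and -0.02. Dlg3 was 0.05 (95% interval -0.09 to 0.19). Dlg4 gave -0.01, -0.31 and -0.05 by 1419580_at, 1419581_at and 1460261_at, the second with a 95% interval of -0.90 to 0.28. Shank3 was -0.18 under ethanol (95% interval -0.38 to 0.03), with groups that did not overlap, and 0.00 under saline (95% interval -0.20 to 0.20). Groups did not overlap for 5 of the 17 under ethanol (20.3% of all) and for 1 under saline (5.16% of all).

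**Figure D5:**
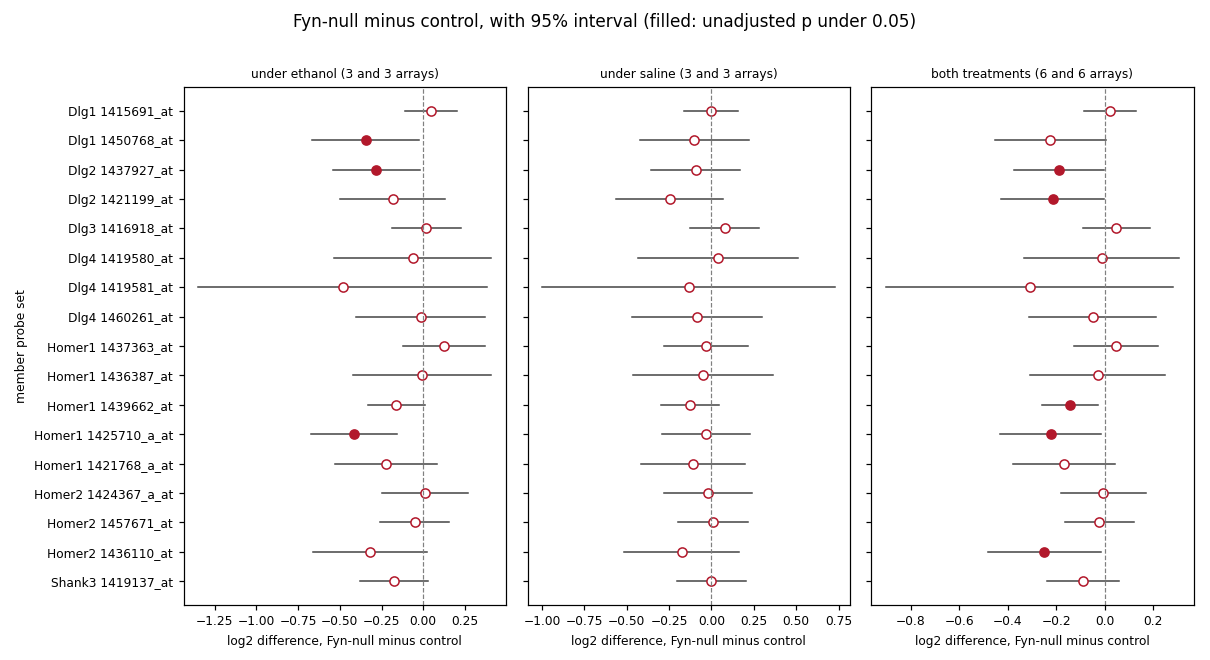
Log2 difference of Fyn-null minus control (horizontal axis) with its 95% interval for the 17 scaffold probe sets, under ethanol, under saline and over both treatments. Filled points have an unadjusted p under 0.05, which 3, 0 and 5 of the 17 reached. Homer1 1425710_a_at is at -0.41 under ethanol and at -0.03 under saline.

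Markers of excitatory cortical neurons, the cells that carry most of these synapses, leaned lower in Fyn-null mice. The mean level of the 4 measured markers was 9.59 to 9.70 in Fyn-null ethanol pools, 10.1 to 10.2 in control ethanol pools, 9.87 to 9.93 in Fyn-null saline pools and 9.91 to 10.3 in control saline pools. Over both treatments all 4 were below 0, 0 were called by limma (0% of all genes) and 3 had an unadjusted p under 0.05 (9.89% of all genes), and their part in the scaffold values was not tested. Between treatments the endothelial markers moved, with 4 of 5 called lower after ethanol (4.8% of all genes were) and a mean level of 6.67 to 6.99 over the ethanol groups and 7.10 to 7.39 over the saline groups, and their part was not tested either. Of the other marker lists, 1 of 5 microglial markers was called lower, and 1 of 5 astrocyte and 1 of 4 striatal projection neuron markers were called higher (1.89% of all genes were).

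The partners of these scaffolds gave a single call with ethanol. Of 28 measured genes of the postsynaptic density other than the scaffolds, 1 fell and 0 rose over both genotypes, where 6.69% of all genes were called. An unadjusted p under 0.05 was reached by 11 of the 28, against 23.7% of all genes, and 20 were below 0, with a median of -0.10 against -0.04 over all genes. The gene that fell was Dlgap3, whose product joins Psd-95 to Shank, at 9.67 ± 0.069 in ethanol pools and 9.90 ± 0.080 in saline pools (SD, n = 6 each, difference -0.23, adjusted p = 0.0314, limma), and its 6 against 6 pools did not overlap. Iqsec2, an exchange factor for Arf proteins at the synapse, was -0.22 (adjusted p = 0.0664), and Nlgn1, a neuroligin that spans the synaptic cleft, was 0.54 (adjusted p = 0.0876). Kalrn, a protein of dendritic spines, was -0.17 (adjusted p = 0.126).

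Of 10 measured partners of Homer proteins 0 passed, 1 had an unadjusted p under 0.05, and their median was -0.05, against the same 6.69%, 23.7% and -0.04 over all genes. Ryr1, a calcium channel of internal stores, was nearest at -0.31 (adjusted p = 0.0851, limma). Between genotypes over both treatments 0 genes of either list passed, and 1 had an unadjusted p under 0.05, Nlgn1 at -0.65 (adjusted p = 0.321, limma).

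Genes induced by neuronal activity, the class to which the short form of Homer1 belongs, did move. Of 18 measured, 7 fell after ethanol over both genotypes and 0 rose, where 4.8% of all genes fell and 1.89% rose, and their median was -0.25, against -0.04 over all genes. Npas4, an activity-dependent transcription factor, was 6.36 ± 0.358 in ethanol pools and 7.91 ± 0.306 in saline pools (SD, n = 6 each, difference -1.54, adjusted p = 0.000192, limma). Egr1, Fos and Egr2, transcription factors of the immediate early class, fell by 0.73, 0.78 and 1.20 (adjusted p = 0.00156, 0.00826 and 0.00851, limma). Beside these, the 5 tested Homer1 probe sets lay between -0.30 and 0.26, and 0 of them passed. With the 3' to 5' difference as a covariate, 0.109% of all probe sets were called for ethanol over both genotypes, against 6.81% without it. The values of the activity, partner and marker genes in that fit are not given here, so the part of RNA quality in their calls was not tested.

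Likeness of pattern over the 12 pools was taken as Pearson's r between highest-mean probe sets, as a description in which all values share the same arrays. Nearest to Homer1 1437363_at were Dimt1 (r = 0.90), H2-K1 (0.90), Reps2 (0.89), Lrrk2 (0.88) and Serpinb9 (0.87). Nearest to Dlg4 1419580_at were Celf3 (0.85), Gatad2b (0.83), Pafah1b1 (0.82), Il18bp (0.81) and Engase (0.81). Nearest to Shank3 were Nup133 (0.90), Pgrmc2 (0.89), Slc35a2 (0.88), Pianp (0.88) and Ctxn1 (0.88).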

How the data were processed

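Log2 RMA values per probe set were deposited by the authors, who made them with affy and RMA per the submitters' processing notes. No source used here gives their versions or says if the batch-effect step of the Methods was applied to these values. S-scores, the measure of the Methods, require intensities of single probes and were left out. Values ranged from 1.62 to 14.4, array medians from 5.40 to 5.48, and correlations between arrays from 0.982 to 0.997. Of 45101 probe sets, 64 controls and then the 45% with the lowest mean were left out. The platform annotation gives 34958 probe sets 1 gene symbol, 932 several and 9211 none.

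All 12 arrays were fitted in R 4.3.3 with lmFit and eBayes of limma 3.58.1, on 4 group means, or on additive terms for genotype and treatment for the differences over both. Probe sets of 1 gene were also compared by their relative values. Adjustment followed Benjamini and Hochberg, and correlations used 100000 permutations. The fits were tested on simulated data. Precision is limited by the number of arrays (median standard error 0.11 for 3 pools against 3 and 0.076 for 6 against 6).

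Values in every array are given for all probe sets of Homer1 and Dlg4, the highest-mean probe set of every other gene, and any called, with an unadjusted p under 0.05 or with groups that did not overlap over both genotypes or both treatments. Up to 4 genes are named per list, called ones first. The genes and lists were chosen with earlier results of these data known. Alternatives were no filter, a filter of 60%, a further quantile normalization, a replicate block, arrayWeights, eBayes with trend and robust, fits restricted to the groups compared, leaving out each array, and averaging the probe sets of a gene. A covariate for the 3' to 5' difference, and a fit without both saline pools whose Fyn value stood with the other genotype, were added after the data were seen.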

Additional observations from a re-analysis of the deposited data

How the results depend on the processing

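As reported above, 0 scaffold probe sets were called in any of 7 comparisons. With no filter 1 was called for ethanol over both genotypes (Dlg2 1421200_at) and, on the relative values, 1. With the filter 6.81% of all probe sets and 1.4% of all relative values were called there. The shares with no filter are not given here, so these calls are not set against them. With arrayWeights, whose estimation stopped before convergence, 1 was called for ethanol in Fyn-null mice (Dlg2 1437927_at at -0.36, adjusted p = 0.0212, limma) and 4 for genotype under ethanol (Homer1 1425710_a_at at -0.48, Homer2 1436110_at at -0.45, Dlg2 1437927_at at -0.36 and Dlg1 1450768_at at -0.45), where 2781 and 3975 of all probe sets were called. Leaving out 1 array gave 0 to 1 for ethanol over both genotypes and 0 to 2 on the relative values, as given above, and 0 elsewhere. For the relative values the share of all called in these fits was not counted. With probe sets averaged by gene, 0 of the scaffold genes were called. With the 3' to 5' covariate the ethanol difference changed sign for 8 of 17 probe sets over both genotypes, 7 in control mice and 8 in Fyn-null mice. Of the differences with an unadjusted p under 0.05 these included 4, at -0.025 for Dlg4 1419581_at in control mice and -0.24 over both genotypes, and 0.012 for Dlg3 in Fyn-null mice and 0.029 over both.

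Counts over all probe sets moved more. For ethanol in control mice, with 355 as reported, they were 36 with the replicate block, 18 with only the groups compared, 147 without both doubted saline pools, 16 with the covariate and 76 to 410 without 1 array (76 without control saline replicate 3). For ethanol in Fyn-null mice, with 99, they were 155 after quantile normalization, 26 with the block, 54 without both pools, 15 with the covariate and 33 to 145 without 1 array (33 without Fyn-null ethanol replicate 3). For ethanol over both genotypes, with 1686, they were 710 with the block, 27 with the covariate and 770 to 1625 without 1 array (770 without Fyn-null ethanol replicate 2). For genotype, with 0 in each comparison, they were 44 under saline, 260 under ethanol and 669 over both treatments without both pools. Under ethanol they were 1 with trend and robust, 193 with only the groups compared and 0 to 35 without 1 array. Over both treatments they were 1 with the filter of 60%, 2 after quantile normalization, 6 with arrayWeights and 0 to 129 without 1 array (129 without control saline replicate 2). The replicate block changed no scaffold call, and the numbers were not taken as pairs. Residuals of arrays with the same number correlated between -0.43 and 0.32, over 0.1 in 3 of 13 pairs, and 2 of 12 arrays lay closest to one with their own number. The causes were not tested. With 3 or 6 pools a group, the intervals given show how far each difference could lie from its estimate.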
